A study of Mus musculus with 12 samples.

Results

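Genes of contractile cells and of activated fibroblasts were followed in the soft tissue beside the mouse spine, without surgery and in the scar a week after surgery. The 10 genes were *Acta2*, *Tagln*, *Cnn1*, *Myl9*, *Myh11* and *Actg2*, which encode parts of the contractile apparatus, and *Fap*, *Lrrc15*, *Cdh11* and *Thy1*, which encode surface proteins of fibroblasts. They were chosen by symbol from 18996 genes in the deposited table, each had 1 row there, and all 10 were among the 14765 genes with counts high enough to test.

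Bulk polyA RNA was sequenced from 12 mice, 4 in each of 3 groups. No operation mice gave paraspinal soft tissue. SHAM mice gave paraspinal soft and scar tissue after an operation that took out paraspinal soft tissue and left the laminae in place. Laminectomy mice gave the same kind of tissue after thoracolumbar laminae had been removed to expose the spinal canal. The study used young wild-type BALB/c mice of both sexes for its experiments, and the sex of each mouse behind these libraries was not given in the sources used here. The series design keeps 3 of the 4 replicates per group for its own analysis without naming them, so all 4 were used here.

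Contractile force in wound tissue comes from myofibroblasts, which are fibroblasts that build stress fibres containing alpha-smooth muscle actin, the product of *Acta2*. The smooth muscle cells of vessel walls carry the same actin together with a fuller contractile apparatus, so a contractile gene measured in whole tissue can come from either cell. *Fap*, the gene of fibroblast activation protein, is a marker of fibroblasts in wounds, scars and tumours, and need not be carried by the same cells as *Acta2*. In bulk tissue, fewer cells of a type and less RNA per cell cannot be told apart.

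Libraries held 16802989 to 18077868 counts, and rank correlations between mice of a group ran from 0.951 to 0.988. The levels below are CPM, read counts relative to the library size after TMM scaling, and depth covers counting error only. The labelled tissue was checked against 12 genes of mature skeletal muscle, whose summed level was 110000 to 156000 CPM without operation, 2580 to 10400 CPM after SHAM surgery and 3480 to 15000 CPM after laminectomy. The No operation samples were therefore rich in muscle, and all 12 of these genes were lower in both surgical groups. Of the libraries, 4 stood apart in values that touch the genes below. No operation replicate 1 was high for *Lrrc15* and *Actg2*, No operation replicate 4 was low for *Cdh11*, Laminectomy replicate 1 was high for *Actg2* and had 3480 CPM over the muscle genes against 11581 to 15017 CPM in the other Laminectomy mice, and SHAM replicate 1 had 6.8 CPM over 9 genes of regenerating muscle, against 1622 to 2768 CPM in the other SHAM mice. A gene was called changed when its adjusted p was below 0.05 and its log2 fold change exceeded 0.5 in size, by the quasi-likelihood test of edgeR with p-values adjusted by Benjamini-Hochberg over all genes tested. Adjusted p-values below come from that test unless another is named, and they measure the spread between mice.

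Of the 10 genes, 5 were higher and 1 was lower in SHAM than in No operation mice, where 25.7% of all genes tested were called higher and 25.1% lower. Between Laminectomy and No operation mice 7 were higher and 1 was lower, where 24.2% of all genes were called higher and 24.4% lower. With a log2 fold change above 1 required there, 4 were higher and 1 was lower, where 14.6% of all genes were called higher and 14.7% lower. *Acta2*, *Actg2*, *Cdh11* and *Thy1* were called higher in both surgical groups and *Myh11* was called lower in both. The summed muscle genes had means of 128000 CPM in No operation, 7440 CPM in SHAM and 10700 CPM in Laminectomy mice. The part of this difference in muscle in the calls was not tested. The comparisons of SHAM and of Laminectomy with No operation mice share the No operation mice and are not independent of each other. The median log2 fold change of the 10 genes was 1.29 in each of them, beside medians of -0.00195 and 0.00927 over all genes. Between Laminectomy and SHAM mice edgeR called none of the 10, and none of the 14765 genes (0%).

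**Figure D1:**
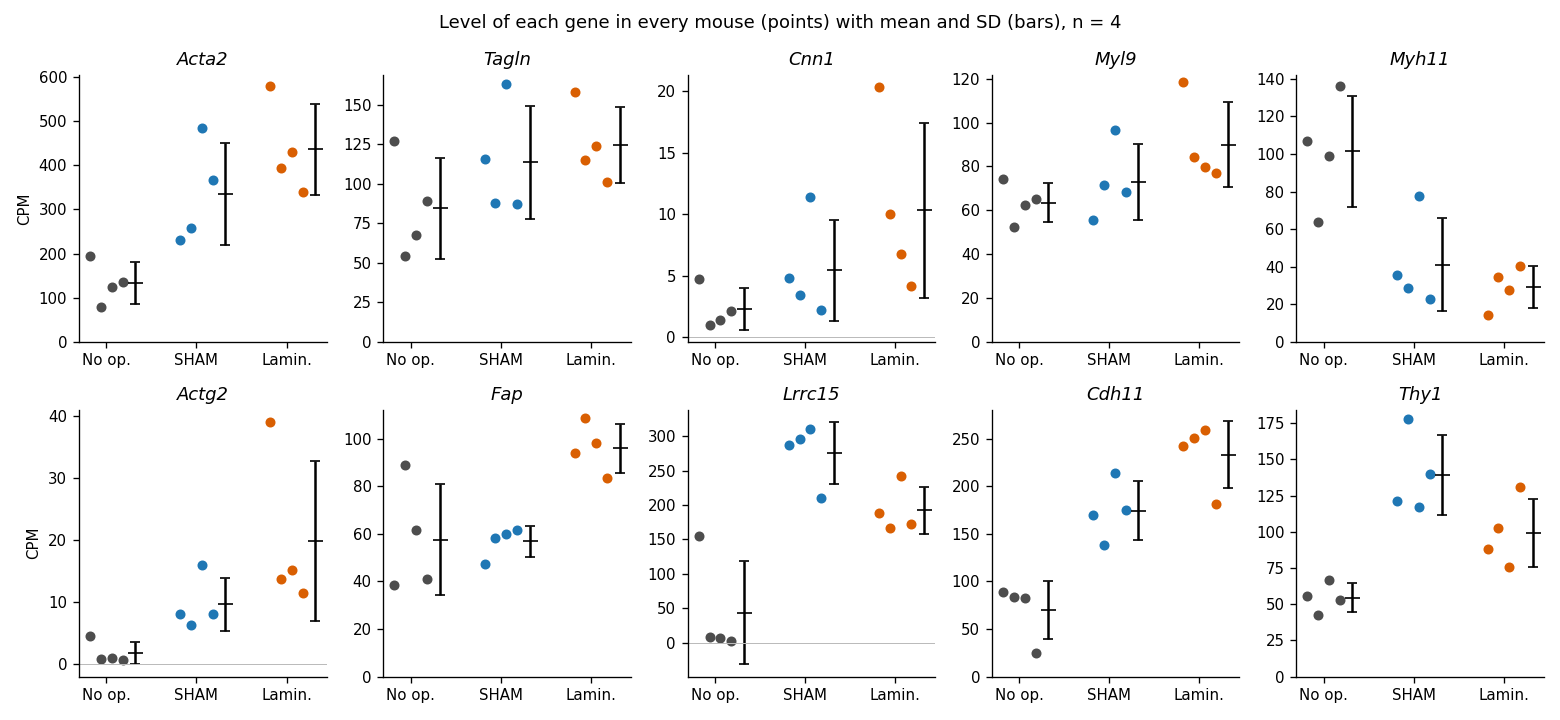
Level of each of the 10 genes in CPM (vertical axis) in each of the 12 mice, with the group's mean and SD as bars (n = 4). *Acta2*, *Actg2*, *Lrrc15*, *Cdh11* and *Thy1* lie higher in every surgical mouse than in every No operation mouse. *Myh11* lies lower in the surgical groups, and *Fap* separates Laminectomy from SHAM mice. The share of all genes that separate in this way from No operation mice was not counted.

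*Acta2* (identifier 11475, GRCm38 chr19:34241090-34255590, minus strand) encodes alpha-smooth muscle actin, the protein by which myofibroblasts are usually recognised. It was at 195, 78.1, 124 and 137 CPM in No operation replicates 1 to 4, at 230.2, 259, 485 and 367 CPM after SHAM surgery and at 580.1, 393, 429.8 and 340.1 CPM after laminectomy. Every surgical mouse was above every No operation mouse, and the ranges of SHAM and Laminectomy overlapped. The log2 fold change was 1.33 (standard error 0.302, adjusted p = 0.00262) in SHAM and 1.71 (standard error 0.305, adjusted p = 0.000621) in Laminectomy, which is 2.51-fold and 3.27-fold.

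*Actg2* (identifier 11468, chr6:83512905-83536265, minus strand) encodes gamma-smooth muscle actin, the actin of visceral smooth muscle. Its level was 4.48, 0.819, 0.999 and 0.631 CPM without operation, 8.04, 6.21, 15.9 and 8.06 CPM after SHAM surgery and 39.0, 13.7, 15.1 and 11.4 CPM after laminectomy. All surgical mice exceeded all No operation mice. Laminectomy replicate 1 stood far above the other Laminectomy mice, and the remaining Laminectomy mice fell among or close to the SHAM mice. *Actg2* had the largest fold change of the 10 in Laminectomy mice, with a value of 3.51 on the log2 scale (standard error 0.654, adjusted p = 0.000804) or 11.4-fold, and in SHAM mice it was 2.47 (standard error 0.638, adjusted p = 0.00569). Without No operation replicate 1 these log2 fold changes were 4.59 in Laminectomy (adjusted p = 0.000106) and 3.54 in SHAM (adjusted p = 0.000354), and *Lrrc15*, at 5.10 in Laminectomy, then had the larger change.

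The other 4 actins share most of their protein sequence with *Acta2* and *Actg2*, so shared reads were looked for. No stretch of 100 bases, the read length, in any transcript of the 10 genes occurred in a transcript of another gene. The cytoplasmic actins *Actg1* and *Actb* were higher in both surgical groups, with log2 fold changes in Laminectomy of 1.39 (standard error 0.181, adjusted p = 8.39e-05) and 1.33 (standard error 0.2, adjusted p = 0.000193). For *Actg1*, 29.9% of such stretches occurred in pseudogenes, so its count is less certain. *Acta1*, the actin of skeletal muscle, fell from a mean of 22170 CPM without operation to 1936 CPM in SHAM and 2617 CPM after laminectomy, while *Actc1*, the cardiac actin that regenerating muscle also makes, was not called in either (log2 fold changes 0.35 and 0.76).

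*Tagln* (identifier 21345, chr9:45929619-45936058, minus strand) encodes transgelin, an actin-binding protein of smooth muscle and myofibroblasts. It was at 127, 54.0, 67.5 and 88.9 CPM without operation, 116, 87.9, 163 and 87.1 CPM after SHAM surgery and 158, 115, 124 and 101 CPM after laminectomy. No operation replicate 1 lay within both surgical ranges, and the groups overlapped. The log2 fold change was 0.43 in SHAM (standard error 0.275, adjusted p = 0.196) and 0.56 in Laminectomy (standard error 0.276, adjusted p = 0.0988), and neither was called. Without No operation replicate 1 both were called, at 0.70 (adjusted p = 0.036) and 0.83 (adjusted p = 0.0176). Exons of *Tagln* overlap *Pcsk7* over 108 bases and an antisense gene over 1241 bases, both on the opposite strand. The methods name the default settings of featureCounts, which ignore strand and give whole counts, whereas the deposited values of *Tagln* are fractional. How reads in these overlaps were assigned is therefore uncertain.

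*Myl9* (identifier 98932, chr2:156775420-156781658, plus strand) encodes a regulatory light chain of smooth muscle and non-muscle myosin. Without operation it was at 74.1, 52.5, 62.3 and 65.3 CPM, after SHAM surgery at 55.4, 71.5, 96.8 and 68.4 CPM and after laminectomy at 119, 84.4, 79.7 and 76.8 CPM. Every Laminectomy mouse was above every No operation mouse, by a narrow margin for replicate 4, and SHAM overlapped both groups. The log2 fold change of 0.50 in Laminectomy (standard error 0.186, adjusted p = 0.0359) lay at the threshold for a call. That call was lost without No operation replicate 2 (0.42, adjusted p = 0.0924), No operation replicate 3 (0.49, adjusted p = 0.0743), No operation replicate 4 (0.52, adjusted p = 0.0602) or Laminectomy replicate 1 (0.34, adjusted p = 0.116). In SHAM the log2 fold change was 0.20 (standard error 0.186, adjusted p = 0.364), which was not called.

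The start of *Myl9* is shown because genes of smooth muscle are classic targets of serum response factor, which binds the CArG box. This box is CC, then 6 bases of A or T, then GG, and reads alike on both strands, so a search of 1 strand covers both. The window searched ran from 250 bases before to 50 bases after the start of each gene in RefSeq (GRCm38.p6). In the set of promoters used here 4 of the 10 genes had an entry (*Acta2*, *Cnn1*, *Myl9* and *Lrrc15*), and the others were not searched. *Acta2* and *Myl9* each held 2 matches with up to 1 mismatch among the 6 middle bases, and *Cnn1* and *Lrrc15* held 0. Of all 32851 promoters, 1.63% held a match with no mismatch and 9.98% held one with up to 1. The matches of *Acta2* began 84 and 34 bases before its RefSeq start, but GENCODE starts the gene farther upstream and places both inside its first exon. Those of *Myl9* lie before the start in both annotations. Capitals mark the box in each stretch, written 5′ to 3′ on the gene's own strand, with the distance of the first base of the box from the RefSeq start.
*Myl9*, 161 bases before the start, chr2:156775283-156775332, 0 mismatches: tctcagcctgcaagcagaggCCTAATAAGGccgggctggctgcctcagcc
*Myl9*, 99 bases before the start, chr2:156775345-156775394, 1 mismatch: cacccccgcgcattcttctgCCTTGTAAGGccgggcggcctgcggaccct
*Myl9*, with a box that has no mismatch, had the smaller log2 fold change of the pair in both surgical groups. Whether the box bears on these changes was not tested. A match in these letters is a description and not a site of binding.

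*Cnn1* (identifier 12797, chr9:22099216-22109630, plus strand) encodes calponin 1, an actin-binding protein of differentiated smooth muscle. Its level was low, at 4.69, 0.945, 1.40 and 2.10 CPM without operation, 4.78, 3.42, 11.4 and 2.19 CPM after SHAM surgery and 20.3, 9.97, 6.79 and 4.12 CPM after laminectomy. No operation replicate 1 lay above Laminectomy replicate 4, and the highest mouse of each group was about 5 times its lowest. *Cnn1* was called higher in Laminectomy (log2 fold change 2.17, standard error 0.662, adjusted p = 0.0143), but not without Laminectomy replicate 1 (1.61, adjusted p = 0.0513), and it was 2.80 without No operation replicate 1. In SHAM it was not called (1.26, standard error 0.653, adjusted p = 0.114) and moved between 0.60 without SHAM replicate 3 (adjusted p = 0.42) and 1.88 without No operation replicate 1, where it was called (adjusted p = 0.0353).

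*Myh11* (identifier 17880, chr16:14194535-14291372, minus strand) encodes the smooth muscle myosin heavy chain, which is made by differentiated smooth muscle and little by myofibroblasts. It was at 107, 64.0, 99.0 and 136 CPM without operation, at 35.6, 28.5, 77.7 and 22.6 CPM after SHAM surgery and at 14.0, 34.3, 27.6 and 40.6 CPM after laminectomy. It was the only one of the 10 called lower in either surgical group. All Laminectomy mice were below all No operation mice, while SHAM replicate 3 was above No operation replicate 2. The log2 fold change was -1.30 in SHAM (standard error 0.412, adjusted p = 0.0164), a call lost without No operation replicate 4 (-1.12, adjusted p = 0.0505), and -1.80 in Laminectomy (standard error 0.418, adjusted p = 0.00317), a 3.48-fold lower level.

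**Figure D2:**
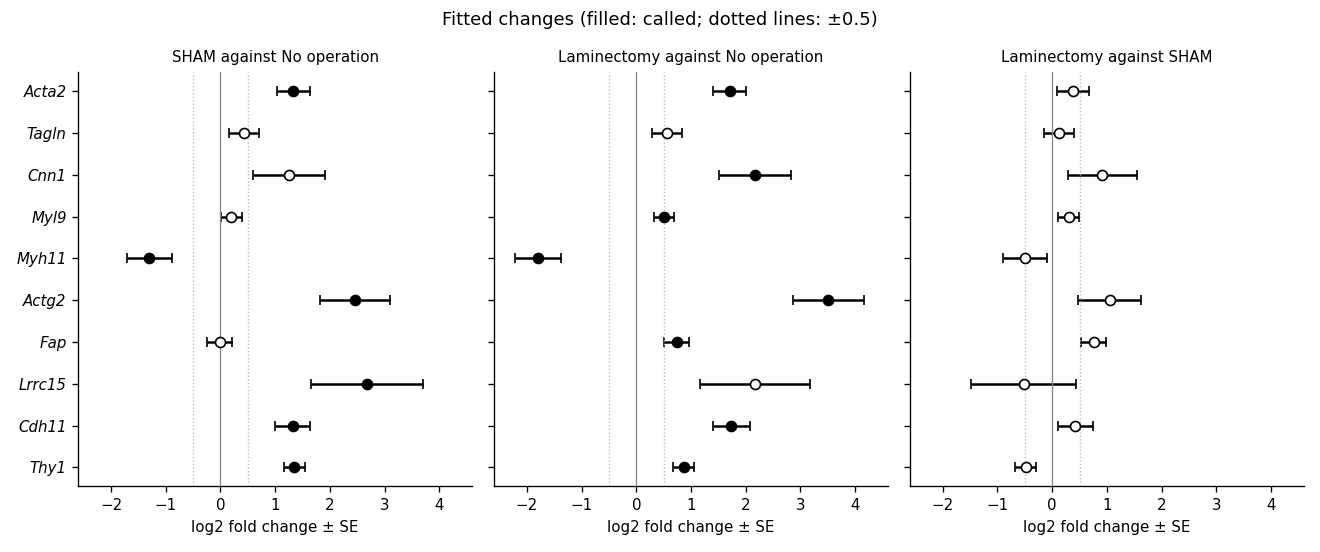
Fitted log2 fold change of each gene with its standard error (horizontal axis, one panel per comparison, 4 mice against 4). Filled points were called changed and dotted lines mark 0.5 in each direction: 6 points are filled for SHAM against No operation, 8 for Laminectomy against No operation and 0 for Laminectomy against SHAM.

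Single mice stood out across the contractile genes. SHAM replicate 3 had the highest level of all 6 contractile genes in its group, and of 8 of the 10 genes. Laminectomy replicate 1 had the highest level of *Acta2*, *Tagln*, *Cnn1*, *Myl9* and *Actg2* among Laminectomy mice and the lowest of *Myh11*. No operation replicate 1 was highest for the same 5 genes in its group, with *Myh11* highest in No operation replicate 4. Summed mural cell genes were at 956 CPM in SHAM replicate 3, the highest of its group, and at 839 CPM in Laminectomy replicate 1, the lowest of its group.

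**Figure D3:**
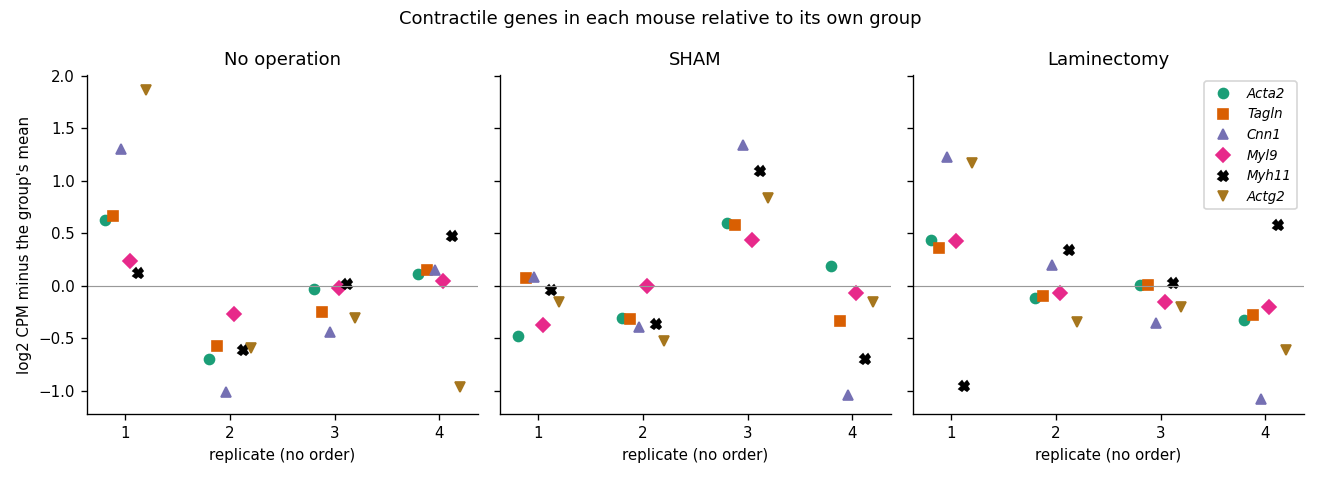
Log2 CPM of the 6 contractile genes in each mouse minus the mean of its own group (vertical axis), by replicate number, which has no order. In Laminectomy replicate 1 the other 5 genes lie above the group's mean and *Myh11* below it, while in SHAM replicate 3 all 6 lie above.

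*Fap* (identifier 14089, chr2:62500943-62574075, minus strand) encodes a cell-surface serine protease that cleaves after proline. It was at 38.7, 88.9, 61.5 and 41.1 CPM without operation, at 47.3, 58.3, 60.1 and 61.7 CPM after SHAM surgery and at 93.9, 108.5, 98.0 and 83.5 CPM after laminectomy. SHAM mice lay within the range of No operation mice, all Laminectomy mice were above all SHAM mice, and No operation replicate 2 reached the Laminectomy range. The log2 fold change against No operation was -0.02 in SHAM (standard error 0.228, adjusted p = 0.951) and 0.74 in Laminectomy (standard error 0.229, adjusted p = 0.0156), the latter called. *Fap* was also the least variable of the 10 within the surgical groups, with the highest mouse at 1.3 times the lowest in SHAM and in Laminectomy, against 2.3 times in No operation mice.

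*Dpp4*, the closest paralog of *Fap*, and 4 more prolyl peptidases were taken for comparison. None of these 5 genes was called higher in either surgical group, and 1 was called lower in SHAM and 2 in Laminectomy. *Dpp4*, which marks resting fibroblasts, was at a mean of 69.6 CPM in No operation, 45.9 CPM in SHAM and 12.1 CPM after laminectomy, which is -2.52 on the log2 scale in Laminectomy (standard error 0.462, adjusted p = 0.000728). *Dpp8*, the only one called in SHAM, was lower in Laminectomy as well (-0.74, standard error 0.119, adjusted p = 0.000316).

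*Lrrc15* (identifier 74488, chr16:30269302-30283256, minus strand) encodes a leucine-rich repeat membrane protein found on activated, matrix-producing fibroblasts. It was at 155, 8.69, 5.99 and 2.10 CPM without operation, at 287, 296, 311 and 209.9 CPM after SHAM surgery and at 189, 167, 242 and 172 CPM after laminectomy. The 4 No operation mice were all below every surgical mouse, but replicate 1 was 73.8 times the lowest of its group and close to the Laminectomy mice. With all mice the log2 fold change was 2.68 in SHAM (standard error 1.03, adjusted p = 0.0391), which was called, and 2.16 in Laminectomy (standard error 1.01, adjusted p = 0.0829), which was not. Without No operation replicate 1 both were called, at 5.62 (adjusted p = 6.34e-06) and 5.10 (adjusted p = 1.36e-05). The SHAM call was lost on leaving out any of the other No operation mice, any SHAM mouse, or Laminectomy replicate 2, 3 or 4, with adjusted p from 0.0503 to 0.0813. The same No operation mouse had the highest summed activated fibroblast genes of its group, at 34476 CPM, against 30454, 20441 and 8941 CPM in the others, and the part of this in the *Lrrc15* level was not tested.

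*Cdh11* (identifier 12552, chr8:102632095-102785642, minus strand) encodes cadherin 11, an adhesion molecule of mesenchymal cells that joins myofibroblasts to each other. Its level was 89.0, 83.9, 82.5 and 24.3 CPM without operation, 169.9, 139, 214 and 175 CPM after SHAM surgery and 242, 250.4, 259 and 182 CPM after laminectomy. Every surgical mouse was above every No operation mouse, and No operation replicate 4 was far below the others of its group. *Cdh11* was called in both surgical groups, with log2 fold changes of 1.32 in SHAM (standard error 0.327, adjusted p = 0.0044) and 1.74 in Laminectomy (standard error 0.33, adjusted p = 0.000914). Osteoblasts also express *Cdh11*, and 8 osteoblast genes summed to 26.8 to 614 CPM in No operation, 28.8 to 160.5 CPM in SHAM and 688 to 1890 CPM after laminectomy, among them *Runx2* at means of 16.6, 31.7 and 61.1 CPM. Of the 8, 0 were called higher and 2 lower in SHAM mice, and 1 was called higher in Laminectomy mice (*Runx2*, log2 fold change 1.88, standard error 0.534, adjusted p = 0.00994), and the part of osteoblasts in the *Cdh11* level was not tested in either group.

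*Thy1* (identifier 21838, chr9:44043384-44048579, plus strand) encodes a surface glycoprotein carried by many fibroblasts and, in mice, by T cells and neurons. It was at 55.9, 42.4, 66.6 and 53.0 CPM without operation, at 121, 178, 117 and 139.97 CPM after SHAM surgery and at 88.1, 102.5, 75.8 and 130.8 CPM after laminectomy. All surgical mice were above all No operation mice, and Laminectomy replicate 4 lay within the SHAM range. *Thy1* had the lowest adjusted p of the 10 in SHAM (log2 fold change 1.35, standard error 0.197, adjusted p = 0.000136), and the log2 fold change in Laminectomy was 0.87 (standard error 0.195, adjusted p = 0.00265). The 9 T cell genes summed to 9.46 to 16.9 CPM in No operation, 20.7 to 29.0 CPM in SHAM and 18.4 to 29.9 CPM after laminectomy. Of the 7 tested, 4 were called higher and 1 lower in SHAM, and 3 higher and 2 lower in Laminectomy. *Cd4*, the co-receptor of helper T cells, was higher in Laminectomy (3.11, standard error 0.516, adjusted p = 0.000379) and *Cd28* was lower (-1.28, standard error 0.255, adjusted p = 0.00125). Of the T cell receptor components, named after their values were seen, *Cd3e* and *Cd3d* were under 1 CPM in every mouse, and *Cd3g* was at means of 0.302 CPM in No operation, 1.22 CPM in SHAM and 0.798 CPM in Laminectomy mice and was called higher in both surgical groups (log2 fold changes 1.99 and 1.38, adjusted p = 0.0026 and 0.0214). The 8 neuron genes summed to 17.6 to 23.7 CPM in SHAM and 9.45 to 16.8 CPM without operation, but to 23.8, 249, 69.9 and 19.9 CPM after laminectomy. Of 3 neuron genes tested, 2 were called higher and 1 lower in SHAM, and 2 higher and 0 lower in Laminectomy, namely *Tubb3* and *Syn1* (log2 fold changes 2.94 and 2.74). The part of T cells and of neurons in the level of *Thy1* was not tested.

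Laminectomy and SHAM mice differed less. No gene was called by edgeR in the whole table, and at an unadjusted p below 0.05 *Fap* was higher and *Thy1* lower, 1 gene in each direction, where 6.95% of all genes were higher and 9.03% lower. *Fap* differed by 0.76 on the log2 scale (standard error 0.228, unadjusted p = 0.00657, adjusted p = 0.158), a 1.69-fold higher level. It was higher in 4 of 4 Laminectomy mice than in any SHAM mouse, and was the only one of the 10 without overlap, where 5.05% of all genes did not overlap upwards and 5.07% downwards. DESeq2 called *Fap* higher (0.76, standard error 0.245, adjusted p = 0.0419) and none of the 8 others it tested, with no p for *Lrrc15*, where it called 1.8% of 14735 genes higher and 2.28% lower. Over the edgeR alternatives the log2 fold change of *Fap* stayed between 0.68 and 0.82. *Thy1* was at -0.49 (standard error 0.194, unadjusted p = 0.0282, adjusted p = 0.25).

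The other 8 did not reach an unadjusted p of 0.05 between Laminectomy and SHAM. *Actg2* had the widest difference, at 1.05 (standard error 0.577, adjusted p = 0.398), and this was 0.48 without Laminectomy replicate 1. *Acta2* was at 0.38 (standard error 0.297), *Cdh11* at 0.42 (standard error 0.321), *Myh11* at -0.50 (standard error 0.409) and *Lrrc15* at -0.52 (standard error 0.963). All of these standard errors were larger than that of *Fap* (0.228), as was that of *Cnn1* (0.625). *Fap* itself, at 0.76, was not called by edgeR, so a difference of that size in these genes is not excluded. Between the same groups 7 of 8 osteoblast genes were higher and 0 lower, 1 of 14 resting fibroblast genes was higher and 9 were lower, and 0 of 8 phagocyte genes were higher and 3 lower at an unadjusted p below 0.05, and their part in the level of *Fap* was not tested.

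Ratios between these genes within a mouse do not depend on how libraries are scaled, and 4 ratios were compared in 3 comparisons by two-sided exact permutation tests, 12 in all. The smallest p that 4 mice against 4 allow is 0.0286, which becomes 0.0858 after Benjamini-Hochberg adjustment over the 12, so none passed an adjusted threshold of 0.05. The ratio of *Myh11* to *Acta2* counts was 0.548, 0.819, 0.799 and 0.996 in No operation mice, 0.155, 0.11, 0.16 and 0.0617 in SHAM mice and 0.0241, 0.0872, 0.0643 and 0.119 in Laminectomy mice. Every surgical mouse had a lower ratio than every No operation mouse, and the SHAM and Laminectomy mice overlapped. The mean log2 ratio was lower by 2.76 in SHAM and 3.61 in Laminectomy than in No operation mice, both at the smallest exact p of 0.0286.

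For *Lrrc15* to *Fap*, which both mark activated fibroblasts, the ratio was 6.07, 5.07, 5.18 and 3.40 in SHAM mice and 2.01, 1.54, 2.47 and 2.06 in Laminectomy mice. In No operation mice it was 4.01 in replicate 1 and under 0.1 in the other 3. The SHAM mice were all above the Laminectomy mice, with a mean log2 difference of Laminectomy minus SHAM of -1.28 (two-sided exact permutation p = 0.0286, adjusted p = 0.0858).

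The ratio of *Actg2* to *Acta2* was higher in both surgical groups, by 2.02 on the log2 scale in Laminectomy (two-sided exact permutation p = 0.0286, adjusted p = 0.0858) and 1.48 in SHAM (exact p = 0.0571, adjusted p = 0.114). The ratio of *Fap* to *Acta2* was 0.198, 1.14, 0.496 and 0.301 in No operation mice, 0.206, 0.225, 0.124 and 0.168 in SHAM mice and 0.162, 0.276, 0.228 and 0.246 in Laminectomy mice. These ranges overlapped between all groups, and the mean log2 difference of Laminectomy minus SHAM was 0.34 (exact permutation p = 0.229, adjusted p = 0.25).

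**Figure D4:**
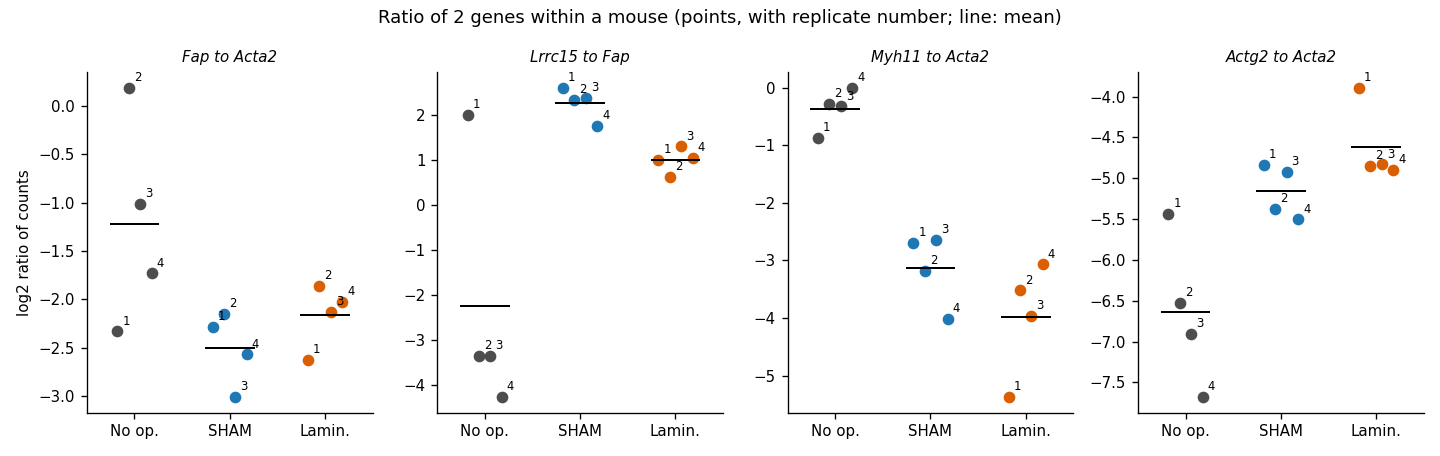
Log2 ratio of the counts of 2 genes in the same mouse (vertical axis), with replicate numbers beside the points and a line at each group's mean (n = 4). *Myh11* to *Acta2* is lower in every surgical mouse than in every No operation mouse, and *Lrrc15* to *Fap* is lower in every Laminectomy mouse than in every SHAM mouse.

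Per kilobase of exon, *Acta2* had the highest mean of the 10 in each group, at 60.7 ± 21.9 CPM per kb (SD, n = 4) in No operation, 153 ± 52.7 in SHAM and 198 ± 46.9 in Laminectomy mice. In No operation mice it lay within the spread of *Myl9*, at 54.7 ± 7.65 CPM per kb. *Myl9* and *Tagln* came next in the surgical groups, at 62.8 ± 14.9 and 57.1 ± 18 CPM per kb in SHAM and 77.3 ± 16.7 and 62.6 ± 12.2 CPM per kb in Laminectomy mice, and did not differ beyond their spread. *Lrrc15* went from 8.1 ± 14.1 CPM per kb in No operation to 52.0 ± 8.51 in SHAM and 36.3 ± 6.48 in Laminectomy mice, above *Thy1* at 46.4 ± 9.2 and 33.2 ± 7.91 but within the spread. In SHAM mice *Lrrc15* and *Thy1* also lay within the spread of *Tagln*. *Cdh11* at 26.2 ± 3.94 CPM per kb and *Fap* at 16.9 ± 1.83 CPM per kb followed in Laminectomy mice. *Myh11* went from above *Fap* in No operation mice (13.3 ± 3.9 against 10.2 ± 4.11 CPM per kb, within the spread) to below it in Laminectomy mice (3.83 ± 1.5 CPM per kb). *Cnn1* had the lowest mean in each group, at 0.835 ± 0.611, 1.99 ± 1.5 and 3.77 ± 2.6 CPM per kb, but within the spread of *Actg2* in No operation mice (1.11 ± 1.18 CPM per kb) and of *Myh11* in Laminectomy mice. The cytoplasmic actin *Actg1* was far above all of them, at a mean of 808 CPM per kb in Laminectomy mice.

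Genes of the surrounding pathways were taken from lists. The counts called in these lists, and in those named above, stand beside 25.7% of all genes called higher and 25.1% lower in SHAM. In Laminectomy these shares were 24.2% and 24.4%. Of 16 other genes of the smooth muscle contractile apparatus, 2 were called higher and 11 lower in each surgical group, with a median log2 fold change of -2 in SHAM and -1.82 in Laminectomy. The 2 higher were *Csrp1*, a LIM protein (1.28, standard error 0.125, adjusted p = 1.48e-05 in Laminectomy), and *Cald1*, which encodes caldesmon (0.99, standard error 0.177, adjusted p = 0.000622). In Laminectomy the largest decreases were in *Hspb6* (-4.10) and *Synpo2* (-3.04), and 7 of the 16, both of these included, are used by skeletal muscle as well. The part of muscle in this list was not tested. Of 12 mural cell genes, which mark pericytes and vascular smooth muscle, 3 were higher and 7 lower in SHAM and 1 higher and 4 lower in Laminectomy. The 3 higher in SHAM and the 4 lower in Laminectomy lie near the shares over all genes. *Pdgfrb*, the platelet-derived growth factor receptor that fibroblasts also carry, was higher (0.67, standard error 0.146, adjusted p = 0.00209), while *Abcc9* and *Kcnj8*, which form the ATP-sensitive potassium channel of pericytes, were lower (-2.46 and -1.82). The summed mural level was 1340 to 1820 CPM in No operation, 631 to 956 CPM in SHAM and 839 to 1110 CPM after laminectomy. *Abcc9* alone went from a mean of 339 CPM in No operation to 55.0 CPM in SHAM and 61.5 CPM in Laminectomy mice. The sum moved in the direction of *Myh11*. Its part in that result, and the part of muscle in the sum, were not tested.

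Of 20 activated fibroblast genes, 18 were higher in SHAM and 20 in Laminectomy, and 0 were lower. In Laminectomy *Timp1*, an inhibitor of metalloproteinases, was at 2.89 and *Postn*, which encodes the matrix protein periostin, at 2.84 (adjusted p = 0.00292 and 0.00798). No operation replicate 1 was far above the rest of its group for both, at 54.2 CPM for *Timp1* against 3.93 to 10.6 CPM and at 2053 CPM for *Postn* against 99.6 to 329.7 CPM, which lowers these fold changes. Of 14 resting fibroblast genes 2 were higher and 3 lower in SHAM, and 0 higher and 7 lower in Laminectomy, led by *Gsn*, which encodes the actin-severing protein gelsolin (-3.49), and *Scara5* (-2.55). Of 18 genes of the non-muscle cytoskeleton 11 were higher and 2 lower in SHAM, and 10 higher and 1 lower in Laminectomy, with *Actn1* at 1.65 and *Tpm4* at 1.54. The 1 lower was *Pdlim7*, which muscle also expresses (-0.73).

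Of 18 genes listed as regulators of contractile genes, 4 were higher and 4 lower in SHAM and 1 higher and 5 lower in Laminectomy. Over all genes 25.7% were called higher and 25.1% lower in SHAM, and 24.2% and 24.4% in Laminectomy. The SHAM counts and the count lower in Laminectomy lie near those shares. The 1 higher in Laminectomy was *Tgfb1*, which encodes the ligand that drives fibroblasts to become myofibroblasts (1.36, standard error 0.235, adjusted p = 0.000512). *Tead1*, a partner of YAP that is abundant in muscle, and *Smad3*, which carries the TGF-beta signal, were lower (-0.9985 and -0.81).

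Of the other cell types the samples could hold, 8 of 8 phagocyte genes were higher in both surgical groups, with *Fcgr1* and *Cd68* at 3.02 and 2.61 in Laminectomy. Of 8 endothelial genes 0 were higher and 4 were lower in SHAM and 3 in Laminectomy, *Tek* and *Vwf* among them (-1.16 and -1.10). Of 9 regenerating muscle genes 6 were higher and 0 lower in each surgical group, with *Mymx* and *Mymk*, which fuse muscle cells, at 13.5 and 56.2 CPM after laminectomy. Of the 12 muscle genes *Pvalb* and *Myh2* had the largest decreases (-4.45 and -4.40 in Laminectomy).

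**Figure D5:**
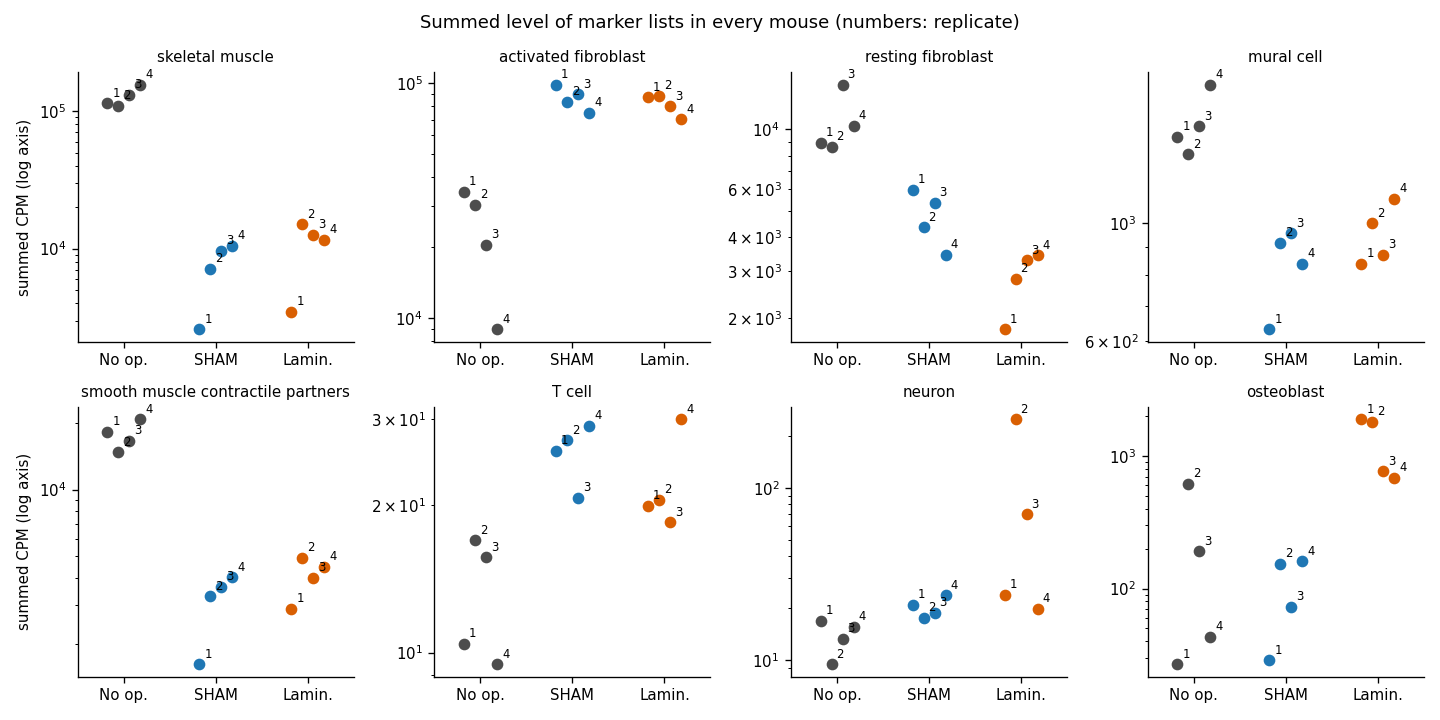
Summed CPM of 8 gene lists in each mouse (vertical axis, log scale), with replicate numbers beside the points. Skeletal muscle, mural cell and smooth muscle partner genes are lower in the surgical mice, activated fibroblast genes are higher, and osteoblast genes separate Laminectomy from SHAM mice.

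The genes whose levels over the 12 mice lay closest to *Fap* were *Cdc25a*, *Rap1gap2*, *Pde5a*, *Fam234b* and *Dmc1*, with root mean square distances of 0.214 to 0.223 on the log2 scale after each gene was centred on its mean. *Rap1gap2*, for example, was at group means of 26.2, 30.2 and 42.5 CPM in No operation, SHAM and Laminectomy mice. *Dmc1* was low, at 0.83, 0.659 and 1.26 CPM. Closest to *Acta2* were *Tubb2a*, *Tspan18*, *Loxl3*, *Armcx2* and *Fam57a*, at distances of 0.248 to 0.287. *Tubb2a*, a beta-tubulin, was at means of 65.7, 147 and 173 CPM, and *Tspan18*, a tetraspanin, at 16.1, 31.4 and 38.5 CPM. Among the 10 themselves the closest were *Tagln* and *Myl9* at 0.276, followed by *Myl9* and *Fap* at 0.467 and *Acta2* and *Tagln* at 0.542, so none of the 10 was as close to *Fap* or *Acta2* as these other genes.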

How the data were processed

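RNA from 12 mice was sequenced in stranded polyA libraries as paired reads of 100 bases. The submitters' processing notes name STAR 2.6.1b, featureCounts 2.0.1, DESeq2 1.30.1 and GRCm38 (mm10). The authors deposited estimated counts per gene that are not normalized: 10.22% of values were not whole, by a step not given in the sources used here. The design assumed whole counts, so values were rounded, which changed none by more than 0.5. No column belonged to another sample.

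Genes were filtered with filterByExpr and scaled by TMM, and all 12 mice were fitted together with group as the only term by the quasi-likelihood functions of edgeR 4.0.16 under R 4.3.3, which were tested on simulated data. Ratios used counts with 0.5 added. DESeq2 1.42.0, other size factors, filters and thresholds, fits of 2 groups, a replicate block and leaving out each mouse were alternatives. Log2 values were taken with a prior count of 2 for distances. Coordinates and exon overlaps come from GENCODE M21, promoters from RefSeq.

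The 10 genes and the 15 lists beside them were chosen with earlier results of these data known. Named genes are the 10, the other 4 actins, up to 2 increases and 2 decreases per list in Laminectomy against No operation with at least 5 CPM in the higher group, and the 5 genes nearest *Fap* and *Acta2*. *Cd3e*, *Cd3d*, *Cd3g* and *Pcsk7* fall outside this rule and were named after the results were seen. The common dispersion was 0.0799. Replicates are biological by the design, and p-values measure the spread between these mice only.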

Additional observations from a re-analysis of the deposited data

Results flagged for a closer look

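In 4 of 30 sets of 4 mice tested (10 genes in 3 groups), 1 mouse lay farther from the rest than Dixon's 95% limit for 4 samples. That limit flags about 1 in 20 sets of independent, normally distributed values. The 10 genes come from the same mice, so this rate is only a guide. *Lrrc15* was at 155 CPM in No operation replicate 1, with the nearest of that group at 8.69 CPM. The same mouse had *Actg2* at 4.48 CPM, with the nearest at 0.999 CPM. *Actg2* was at 39.0 CPM in Laminectomy replicate 1, with the nearest at 15.1 CPM. *Cdh11* was at 24.3 CPM in No operation replicate 4, with the nearest at 82.5 CPM, and that mouse also had the lowest summed activated fibroblast genes of its group, at 8941 CPM.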

How the results depend on the processing

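Of 564 values of the 10 genes under other settings, 529 kept their direction and their side of the threshold, 20 lost a call, 9 gained one and 6 changed sign, all 6 in differences that were not called. The log2 fold change of *Fap* in SHAM against No operation became 0.047 with a replicate block and ran from -0.17 to 0.27 on leaving out 1 mouse. Between Laminectomy and SHAM, *Myh11* ran from -0.70 to 0.0103 and *Tagln* from -0.0038 to 0.36 on leaving out 1 mouse. DESeq2 called 1 of the 10 genes between Laminectomy and SHAM where edgeR called 0, over all genes 601 against 0. With a log2 fold change above 1 required, 5 of the 10 were called between Laminectomy and No operation in place of 8, where 14.6% of all genes were called higher and 14.7% lower. Leaving out No operation replicate 1 and SHAM replicate 1 together, chosen after seeing the data, gave calls for *Cnn1* in SHAM (1.95, adjusted p = 0.0484, edgeR), *Tagln* and *Lrrc15* in Laminectomy (0.83 and 5.10) and lost that for *Myh11* in SHAM (-1.21, adjusted p = 0.0714, edgeR). *Lrrc15* in SHAM was not called with only 2 groups in the fit (2.69, adjusted p = 0.0807, edgeR), and DESeq2 gave no p for *Lrrc15* in any comparison. *Actg2* left the test under a minimum of 10 counts in every mouse. The cause of these changes was not tested. Replicate numbers are shared by the groups but nothing pairs the mice: 7 of 12 same-numbered pairs had a correlation over 0.1 (range -0.228 to 0.352) and 6 of 12 samples correlated best with their own number. The replicate block gave 7442, 7153 and 0 calls over all genes, against 7502, 7183 and 0, and with it *Lrrc15* was called in Laminectomy (3.70, adjusted p = 0.0197) and *Myl9* was not (0.50, adjusted p = 0.0549). Without No operation replicate 1 the log2 ratio of *Lrrc15* to *Fap* differed from No operation by 5.93 in SHAM and 4.65 in Laminectomy, against 4.51 and 3.24 with all mice.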
